A study of Drosophila melanogaster with 9 samples.

Results

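The genes described here encode the machinery that copies DNA, from the proteins that mark origins to the enzymes that supply nucleotides. They were measured by RNA-seq in ventral nerve cords (VNCs) of Drosophila larvae whose neuroblasts (NBs, the neural stem cells) express an RNAi against prospero and carry 3 levels of the transcription factor Chinmo. The members were found by matching 40 listed symbols to the symbols of the deposited table, and 38 of its 15340 genes matched. PCNA did not match because the table holds that gene under its older name mus209, which is also listed, and RfC40 did not match because the table holds RfC4, of which RfC40 is a synonym. Of the 38 genes, 37 had reads and were tested in every comparison. The remaining one, lat, which encodes the Orc3 subunit, was at 0 in all 9 libraries.

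Replication starts when the origin recognition complex (ORC), Cdc6 and Cdt1, called Double parked (dup) in flies, load the ring-shaped MCM helicase onto DNA in G1, a step that geminin blocks once S phase has begun. Cdc45 and the GINS complex then join the helicase and switch it on, primase with DNA polymerase alpha lays down primers, and polymerases delta and epsilon extend them while held by the sliding clamp PCNA, which the RFC clamp loader opens. In the fly, many of these genes are transcribed by E2F at the entry into S phase. In the larval nerve cord, neuroblasts and their ganglion mother cells replicate DNA, whereas neurons have left the cycle.

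All 3 conditions carried nab-GAL4, a GAL4 trap active in all neuroblasts of the VNC and central brain, with UAS-dicer2 and a UAS-prosperoRNAi construct. The first condition, called P, carried nothing more (nab>prosRNAi). The second, PC, added UAS-chinmoRNAi (nab>prosRNAi, chinmoRNAi), and the third, PCC, added UAS-chinmoFL (nab>prosRNAi, chinmo). Each had 3 replicates, A, B and C, made from pools of 51 to 82 dissected nervous systems of larvae reared for 7 days at 18°C and 3 days at 29°C. The stage is late L3 in the methods and wandering L3 in the labels. No library without the prospero knockdown was analysed here, so every comparison is between prosRNAi nerve cords with different chinmo constructs. The labels name no filler construct for P, which thus carried fewer UAS constructs than PC and PCC. In P over PC and PCC over P, the number of UAS constructs and the level of Chinmo cannot be told apart. Only PCC over PC is matched in that number. The values are normalized counts, that is, reads on a gene divided by a size factor of the library. Between 30677075 and 43415151 reads fell on genes per library, and the lowest value of any tested replication gene was 301 normalized counts. The SD between replicates was below the counting error (the square root of the reads) for 0 of the 37 genes in PC, 2 in P and 5 in PCC, and its median was 5.3, 4.52 and 2.51 times that error.

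The target chinmo was measured at 5427, 6330.2 and 4518 normalized counts in PC, 8190.1, 8533 and 8819 in P and 71836, 89792 and 81295 in PCC. The conditions did not overlap, and the order followed the labels. The log2 fold change was 0.66 (standard error 0.13, limma adjusted p = 0.00824) for P over PC and 3.24 (standard error 0.09, limma adjusted p = 1.73e-05) for PCC over P. Reads of the chinmo transgene and of the endogenous gene were not told apart. Expression of pros, the target of the RNAi common to all conditions, was 35040.2, 42387 and 31510.1 normalized counts in PC, 17406, 19998 and 15859 in P and 8607, 10751 and 9584 in PCC. It fell at each step without overlap, with a log2 fold change of -1.03 (standard error 0.15, limma adjusted p = 0.00266) for P over PC and -0.88 (standard error 0.11, limma adjusted p = 0.00461) for PCC over P. The conditions thus differed in pros transcripts as well as in chinmo, and the part of pros in the changes below was not tested.

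Transcripts of most replication genes were more abundant in P than in PC, and a smaller set rose further in PCC. Fold changes were estimated with limma on log2(normalized count + 1), and a gene was called changed when its p, adjusted by Benjamini-Hochberg over all genes tested, was under 0.05. In P over PC, 32 of the 37 genes were called higher and 0 lower, where 14.1% of all genes tested were called higher and 17.9% lower. Their median log2 fold change was 0.59, a 1.5-fold difference, and the median of all genes tested was -0.05. The 37 values ranged from 0.30 to 0.86, and in 34 of the genes each P library was above each PC library, as in 23.4% of all genes. The 5 genes that did not pass were mus209, RfC3, RfC38, Sld5 and RPA2. In PCC over P, 15 genes were called higher and 0 lower, against 9.74% higher and 8.26% lower of all genes. The median was 0.25, a 1.19-fold difference, and the values ran from -0.25 to 0.81, with 30 above and 7 below 0. At an unadjusted limma p under 0.05, 20 were higher and 1 lower, and on the recovered reads edgeR called 17 higher and 0 lower and DESeq2 21 higher and 1 lower. Of all 11057 genes tested, 1887 were higher and 2061 lower at the unadjusted p. With edgeR 1336 of them were called higher and 744 lower, and with DESeq2 1695 and 1494. PCC libraries were all above the P libraries in 24 genes (20.5% of all genes) and all below them in 1, Orc5. Over all genes they were all below in 2450 of 11057. Over the whole range of Chinmo, in PCC over PC, 36 of 37 genes were called higher and 0 lower (19.9% and 22.7% of all genes), with a median of 0.87, or 1.83-fold, and RPA2 was the exception. In the same 36 genes every PCC library was above every PC library, as in 27.5% of all genes. P over PC and PCC over P share the P libraries, so a low P value raises one and lowers the other.

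Fewer genes were called in the second comparison when single libraries were left out. The 15 members called higher in PCC over P became 7 without P A, 3 without P B and 7 without P C (with 1 called lower). They became 3 without PCC A, 3 without PCC B and 10 without PCC C, while the median stayed between 0.17 and 0.29. Over all genes tested, the number called higher fell too, from 1077 to 697, 415, 695, 581, 622 and 885 in the same order. The count of members also fell to 8 after scaling to the same total, to 6 in a fit of all 9 libraries and to 3 without a mean-variance trend. The 32 genes of P over PC became 20 without P A and 18 without P B, and the median lay between 0.52 and 0.67 over all libraries left out. Over all genes, the number called higher in that comparison went from 1617 to 734 and 697.

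**Figure D1:**
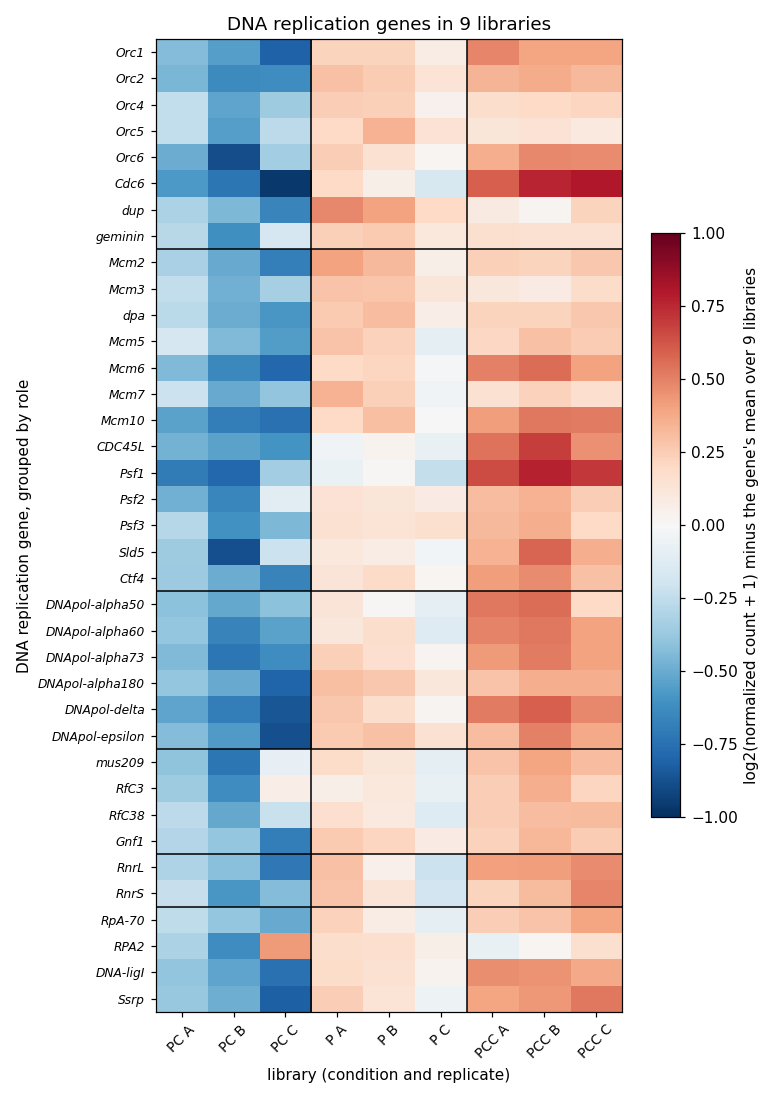
Heat map of the 37 tested replication genes (rows, grouped by role) in the 9 libraries (columns), coloured by log2(normalized count + 1) minus the gene's mean over the 9 libraries. The PC libraries are low for almost every gene, with RPA2 in PC C the clearest exception, and the rise from P to PCC is strongest for Cdc6, CDC45L and Psf1.

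As a share of all normalized counts, the members made up 0.369 to 0.427% in the PC libraries, 0.523 to 0.603% in P and 0.602 to 0.618% in PCC. Replicate C of P stood apart: it was the lowest of the P libraries for 36 of the 37 genes. In that library the summed counts of 5 neuronal markers (elav, brp, n-syb, Syt1 and para) were 40120, against 30541 and 29970 in P A and P B, and its summed counts of 5 muscle genes (10850) and 5 salivary gland genes (871) were the highest of the 9 libraries. The part of these transcripts in the result was not tested. Without P C, the median of the replication genes was 0.67 for P over PC and 0.17 for PCC over P.

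Cell type markers also moved with the conditions. All 6 neuroblast markers (mira, dpn, wor, ase, insc and grh) were called higher in P over PC, with log2 fold changes of 0.81 to 1.10, and their summed counts were 58448 to 75868 in PC, 117965 to 132249 in P and 99571 to 117612 in PCC. In PCC over P none of the 6 was called higher by limma, and mira was called lower, just inside the threshold (limma adjusted p = 0.0489). At an unadjusted limma p under 0.05, 1 was higher and 2 were lower. On the recovered reads edgeR called 0 higher and 0 lower, and DESeq2 1 and 2. Neuronal markers fell, 4 of 5 being called lower in P over PC and 5 of 5 in PCC over PC, but 1 of 5 in PCC over P (4 at an unadjusted limma p under 0.05), and their sums were 45450 to 64343 in PC, 29970 to 40120 in P and 14203 to 23690 in PCC. Of 5 glial markers, 2 were called higher and 2 lower in P over PC. Sums of 5 fat body genes ranged from 11996 to 447876 over the libraries, those of 5 muscle genes from 1115 to 10850, and those of 5 hemocyte genes from 2618 to 10177. No neuroblast or neuronal marker was at 0 in any library. In pooled nerve cords, fewer replicating cells and less RNA per replicating cell cannot be told apart. The part of cell composition in the changes below was not tested.

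Origin licensing genes rose in the first comparison, and fewer passed in the second. All 8 with reads were called higher in P over PC (median 0.74). In PCC over P, 3 were called higher (Orc1, Orc6 and Cdc6), and 3 had values below 0 without passing (dup, Orc5 and geminin). Cdc6, the ATPase that joins ORC to load the helicase, was measured at 1154, 1040.1 and 881 normalized counts in PC, 1977, 1786 and 1537 in P and 2599.6, 2913 and 2992 in PCC. Its 3 conditions did not overlap, and it climbed by similar amounts at each step, with a log2 fold change of 0.79 (standard error 0.14, limma adjusted p = 0.00574) and then 0.69 (standard error 0.10, limma adjusted p = 0.00816). The total of 1.47 in PCC over PC (limma adjusted p = 0.000286) was the largest of the 37 genes. dup, the Cdt1 protein that works beside Cdc6, was measured at 5215, 4744 and 4099.8 normalized counts in PC, 9020.5, 8556 and 7451 in P and 6911, 6613 and 7545 in PCC. It was lowest in PC and highest in P, and PCC overlapped P only through PCC C and P C. Its log2 fold change was 0.83 (standard error 0.12, limma adjusted p = 0.0028) in P over PC, the largest of the licensing genes, and -0.25 (standard error 0.09, limma adjusted p = 0.0917) in PCC over P. With 1 library left out, that second value passed only without P C (-0.33, limma adjusted p = 0.0448). It also passed after scaling to the same total (limma adjusted p = 0.0207), after quantile normalization (limma adjusted p = 0.0288) and with DESeq2 on the recovered reads (adjusted p = 0.0355), and over all alternatives the adjusted p of dup in PCC over P ran from 0.0207 to 0.241.

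Among the ORC subunits, Orc2 was measured at 1536, 1357 and 1370.3 normalized counts in PC, 2591, 2519 and 2328 in P and 2671, 2738 and 2650.4 in PCC. P and PCC were both far above PC and close to each other, with log2 fold changes of 0.80 (standard error 0.10, limma adjusted p = 0.00138) and 0.12 (standard error 0.06, limma adjusted p = 0.2). Orc4 stood at 2377, 1947 and 2202 normalized counts in PC, 3329.7, 3322 and 2904 in P and 3180.4, 3233 and 3268 in PCC. PC was the low condition, and PCC fell within the range of P, with 0.55 (standard error 0.11, limma adjusted p = 0.00878) and 0.02 (standard error 0.07, limma adjusted p = 0.848). Orc5 was measured at 1303, 1057 and 1291 normalized counts in PC, 1781, 1971 and 1715 in P and 1684, 1712 and 1658 in PCC. It was the gene whose PCC libraries all lay below the P libraries, by a small margin, with 0.59 (standard error 0.12, limma adjusted p = 0.00912) and -0.11 (standard error 0.07, limma adjusted p = 0.292). Without P B, the calls of Orc4 and Orc5 in P over PC were lost (limma adjusted p = 0.0513 and 0.0529). Geminin, the inhibitor of Cdt1, had a log2 fold change of 0.56 and then -0.05 (limma adjusted p = 0.0157 and 0.567). The zero of lat cannot be read as absence of expression. The annotation gives another gene, CG34315, the same span on the same strand, CG34315 was also at 0 in every library, and the counting mode left out reads that fall on 2 genes. The part of this rule in the zero was not tested.

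Of the 13 helicase genes, 12 were called higher in the first comparison, all but Sld5. All 6 subunits of the MCM2-7 ring (Mcm2, Mcm3, dpa, which is Mcm4, Mcm5, Mcm6 and Mcm7) were called higher in P over PC, with log2 fold changes of 0.53 to 0.76. In PCC over P the median of the ring was 0.01, 1 of 6 was called higher, Mcm6, and the other 5 lay between -0.10 and 0.11. Mcm2 was measured at 7958, 7011 and 6195 normalized counts in PC, 13131, 12436 and 10369.8 in P and 11756, 11597 and 12009 in PCC. PC was the low condition and the P and PCC libraries overlapped, with 0.76 (standard error 0.14, limma adjusted p = 0.00522) and -0.02 (standard error 0.09, limma adjusted p = 0.921). Mcm3 gave 7269, 6169.8 and 6819 normalized counts in PC, 10504, 10428 and 9338 in P and 9288, 9105 and 9752 in PCC. Its PCC libraries lay low in or below the range of P, with 0.58 (standard error 0.11, limma adjusted p = 0.00568) and -0.10 (standard error 0.06, limma adjusted p = 0.287). Mcm6, singled out after its values were seen, was measured at 8059, 6982 and 6340.2 normalized counts in PC, 12574, 12686 and 10819.7 in P and 15454, 16078 and 14470.4 in PCC. Every condition was separate from the next, with 0.76 (standard error 0.12, limma adjusted p = 0.00382) and 0.35 (standard error 0.08, limma adjusted p = 0.0277). The second call was lost without P A, P B, PCC A or PCC B (limma adjusted p = 0.0541 to 0.0761). The ratio of Mcm6 to the geometric mean of the other 5 subunits, in normalized counts uncorrected for length, was 0.926 to 1.0 in PC, 1.04 to 1.09 in P and 1.27 to 1.42 in PCC, so the libraries of the conditions did not overlap. This ratio was also chosen after the values were seen and carries no test.

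CDC45L, the Cdc45 subunit of the active helicase, was measured at 2158, 2066 and 1976 normalized counts in PC, 2933, 3070.5 and 2843 in P and 4366, 4834 and 4118 in PCC. The conditions did not overlap and replicates were tight. Its log2 fold change was 0.51 (standard error 0.09, limma adjusted p = 0.00499) and then 0.59 (standard error 0.07, limma adjusted p = 0.00396), and both calls held in every alternative run. Psf1, a subunit of GINS, was measured at 319, 301 and 407 normalized counts in PC, 496, 522 and 441 in P and 816, 888 and 848 in PCC. It rose without overlap at both steps and had the largest change of all members in PCC over P. Its log2 fold change was 0.51 (standard error 0.16, limma adjusted p = 0.0444) and then 0.81 (standard error 0.10, limma adjusted p = 0.00389). The first call was lost without PC A, PC B, P A, P B or P C (limma adjusted p = 0.053 to 0.158), and the second held with each library left out. Of the other GINS subunits, Sld5 was called higher in PCC over P (0.38, limma adjusted p = 0.034), whereas Psf2 (0.18) and Psf3 (0.15) did not pass, although the PCC libraries of both lay above all P libraries. The ratio of Psf1 to Psf2 in normalized counts was 0.877 to 0.939 in PC, 0.826 to 0.956 in P and 1.31 to 1.42 in PCC. PC and P overlapped in this ratio and PCC stood above both. It too was chosen after the values were seen, with Psf1 the member that changed most in PCC over P, and was not tested. Mcm10, which helps to start the loaded helicase, was measured at 1316, 1178 and 1134 normalized counts in PC, 2189.5, 2342 and 1911 in P and 2536, 2747 and 2724 in PCC. It had the largest change of this group in P over PC, 0.83 (standard error 0.12, limma adjusted p = 0.00221), without overlap. It rose again in PCC over P, 0.32 (standard error 0.09, limma adjusted p = 0.0459), a call lost with any 1 of the 6 libraries left out (limma adjusted p = 0.0629 to 0.111). Ctf4, which ties the helicase to polymerase alpha, was also called higher in PCC over P (0.28, limma adjusted p = 0.0404).

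**Figure D2:**
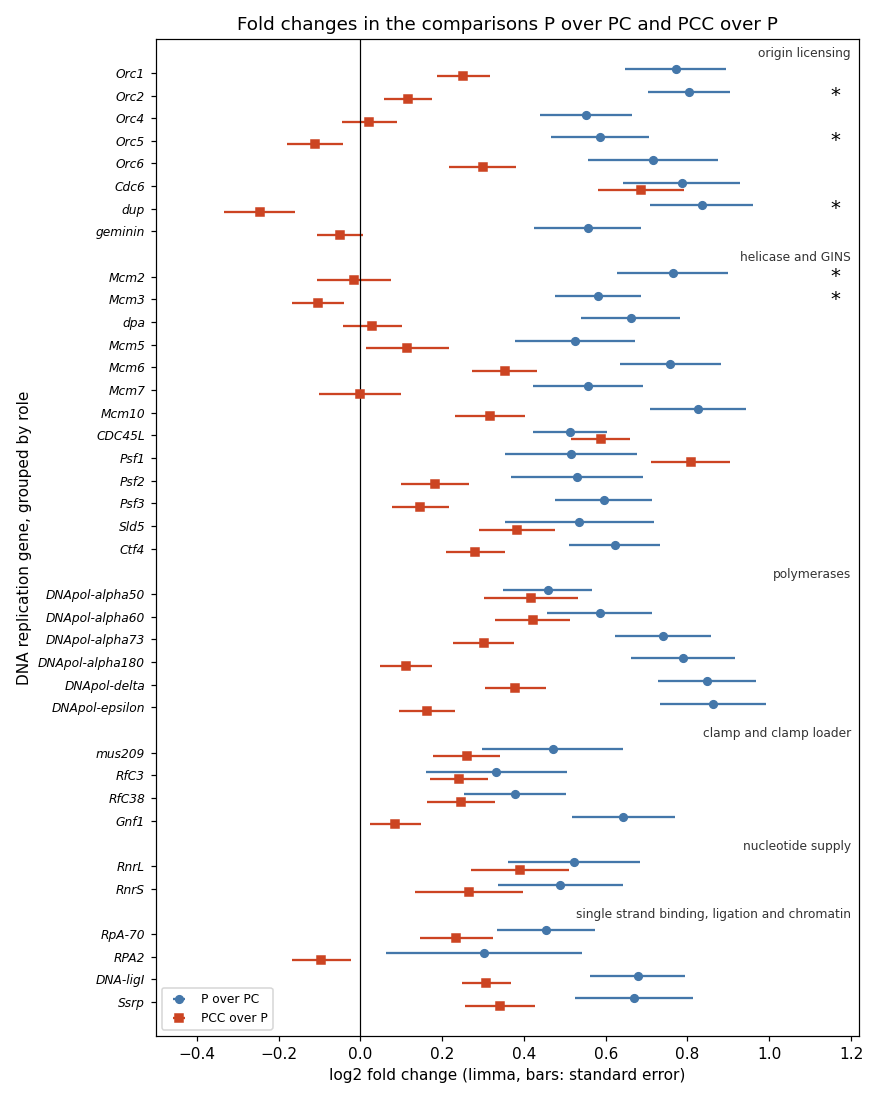
Log2 fold changes of the 37 replication genes with standard errors (horizontal axis, n = 3 libraries per condition), for P over PC (circles) and PCC over P (squares), grouped by role. Asterisks mark the 5 genes whose changes at the 2 steps differed by the test in all 9 libraries. All circles lie between 0.30 and 0.86, whereas the squares spread from -0.25 (dup) to 0.81 (Psf1).

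All 6 polymerase genes were called higher in P over PC (median 0.76), and 4 of 6 in PCC over P (median 0.34). DNApol-epsilon, the catalytic subunit of the polymerase usually assigned to the leading strand, was measured at 2756, 2513 and 2022 normalized counts in PC, 4461, 4564 and 4133 in P and 4613, 5278 and 4843 in PCC. Its conditions did not overlap, but the gap at the second step was small. It had the largest change of all members in P over PC, 0.86 (standard error 0.13, limma adjusted p = 0.00284), followed by 0.16 (standard error 0.07, limma adjusted p = 0.142). DNApol-alpha50, the catalytic subunit of primase, was measured at 888, 826 and 886 normalized counts in PC, 1290.5, 1188 and 1100.4 in P and 1701, 1738 and 1357 in PCC. P lay above PC and PCC above P, though PCC C was well below its other replicates. The log2 fold changes were 0.46 (standard error 0.11, limma adjusted p = 0.0158) and 0.42 (standard error 0.11, limma adjusted p = 0.0493). The first call was lost without P A or P B (limma adjusted p = 0.0705 to 0.0824), and the second without P A, P B, P C, PCC A or PCC B (limma adjusted p = 0.0764 to 0.136). DNApol-alpha60, the large primase subunit, was measured at 968, 795 and 871 normalized counts in PC, 1368, 1429 and 1159 in P and 1782, 1826 and 1673 in PCC. Its conditions were again separate, with 0.58 (standard error 0.13, limma adjusted p = 0.0118) and 0.42 (standard error 0.09, limma adjusted p = 0.0261). Its first call was lost without P A or P B (limma adjusted p = 0.0577 to 0.0638) and its second without P A, P B, PCC A or PCC B (limma adjusted p = 0.0518 to 0.0735). DNApol-alpha180, the catalytic subunit of polymerase alpha, was measured at 3179, 2932 and 2391 normalized counts in PC, 5113, 5010.4 and 4496 in P and 5083, 5338 and 5359 in PCC. The first step separated the conditions widely and the second left them overlapping, with 0.79 (standard error 0.13, limma adjusted p = 0.00356) and 0.11 (standard error 0.06, limma adjusted p = 0.252). Within the polymerase alpha-primase complex, the 4 subunits were thus at 0.46 to 0.79 in P over PC and at 0.11 to 0.42 in PCC over P.

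The clamp and its loader had the lowest median of the groups in P over PC (0.42): 1 of 4 genes was called higher in P over PC and 0 of 4 in PCC over P, and all 4 were called higher in PCC over PC. In PCC over P, 3 of the 4 had an unadjusted limma p under 0.05, and on the recovered reads edgeR called 2 higher and DESeq2 3. mus209, which encodes the sliding clamp PCNA, was measured at 10785, 8617 and 13465 normalized counts in PC, 16112, 15491 and 13327 in P and 17334, 18698 and 17614 in PCC. PC C lay just above P C, and the PCC libraries lay above all others. The log2 fold changes were 0.47 (standard error 0.17, limma adjusted p = 0.0725) and 0.26 (standard error 0.08, limma adjusted p = 0.07), and 0.73 (standard error 0.16, limma adjusted p = 0.00997) for PCC over PC. Without PC C, P over PC passed (0.63, limma adjusted p = 0.00877). RfC3, a small subunit of the clamp loader, was measured at 1571, 1310.5 and 2111 normalized counts in PC, 2091, 2170.2 and 1915 in P and 2382, 2587 and 2332 in PCC. Here too PC C lay within the range of P, with 0.33 (standard error 0.17, limma adjusted p = 0.183) and 0.24 (standard error 0.07, limma adjusted p = 0.0591). Without PC C, the first value was 0.52 (limma adjusted p = 0.00907). Its call in PCC over PC, 0.57 (limma adjusted p = 0.0322), was lost without PC A, PC B, PCC A, PCC B or PCC C (limma adjusted p = 0.0678 to 0.099). Gnf1, the large subunit of the loader, was measured at 5674, 5300.4 and 4302 normalized counts in PC, 8330.2, 8044 and 7352 in P and 8135, 8733 and 8294 in PCC. In contrast to RfC3, its lowest library was PC C, and P and PCC overlapped, with 0.64 (standard error 0.13, limma adjusted p = 0.00754) and 0.09 (standard error 0.06, limma adjusted p = 0.37). RfC4, the gene that RfC40 stands for, is not counted among the members and had 0.41 and 0.21 (limma adjusted p = 0.0656 and 0.207).

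Both subunits of ribonucleotide reductase, which makes deoxyribonucleotides, were called higher in P over PC, and neither passed in PCC over P, where 1 had an unadjusted limma p under 0.05 and edgeR called 0 and DESeq2 1 on the recovered reads. RnrL, the large subunit, was measured at 8538, 7925 and 6454 normalized counts in PC, 12947, 10958 and 9125 in P and 14057, 14157 and 14638 in PCC. Its P libraries spread widely between PC and PCC without overlap. The log2 fold changes were 0.52 (standard error 0.16, limma adjusted p = 0.0413) and 0.39 (standard error 0.12, limma adjusted p = 0.0661). Its first call was lost without PC A, PC B, PC C, P A or P B (limma adjusted p = 0.0514 to 0.151), and without P A the second passed (0.51, limma adjusted p = 0.0284). RnrS, the small subunit, was measured at 10610.1, 8294 and 9176 normalized counts in PC, 15159, 13573 and 10855 in P and 14456, 15433 and 17422 in PCC. P C was just above the highest PC library, and PCC A lay within the range of P. The log2 fold changes were 0.49 (standard error 0.15, limma adjusted p = 0.0441) and 0.27 (standard error 0.13, limma adjusted p = 0.195), the first of which was lost without PC B, PC C, P A or P B (limma adjusted p = 0.0577 to 0.163). In PCC over PC both passed, with 0.91 and 0.76 (limma adjusted p = 0.00119 and 0.00296).

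Of the 4 genes for single strand binding, ligation and chromatin, 3 were called higher in P over PC and 2 in PCC over P. DNA-ligI, the ligase that seals Okazaki fragments, was measured at 1942, 1769.8 and 1520.2 normalized counts in PC, 2889, 2841 and 2609.9 in P and 3519.7, 3485 and 3313 in PCC. The conditions did not overlap, with 0.68 (standard error 0.12, limma adjusted p = 0.0046) and 0.31 (standard error 0.06, limma adjusted p = 0.0173). The second call was lost without P B, PCC A or PCC B (limma adjusted p = 0.0526 to 0.0629). Ssrp, a subunit of the histone chaperone FACT, was measured at 11927, 11054 and 8787 normalized counts in PC, 18344, 16984 and 14947 in P and 20326, 20899 and 22330.4 in PCC. It too rose without overlap at each step, with 0.67 (standard error 0.14, limma adjusted p = 0.011) and 0.34 (standard error 0.09, limma adjusted p = 0.0385). Its first call was lost without P A or P B (limma adjusted p = 0.0527 to 0.0545) and its second without P B, P C, PCC A, PCC B or PCC C (limma adjusted p = 0.0663 to 0.11). RPA2, the middle subunit of the single strand binding complex RPA, was measured at 4344, 3525 and 7254 normalized counts in PC, 6117, 6059 and 5619.9 in P and 5141, 5489.8 and 6054 in PCC. PC C was the highest of all 9 libraries while PC A and PC B were the lowest, so PC overlapped both other conditions. Its log2 fold changes were 0.30 (standard error 0.24, limma adjusted p = 0.381), -0.10 (standard error 0.07, limma adjusted p = 0.392) and 0.21 (standard error 0.25, limma adjusted p = 0.551) in P over PC, PCC over P and PCC over PC. Without PC C, P over PC was 0.60 (limma adjusted p = 0.00495) and PCC over PC was 0.50 (limma adjusted p = 0.0144). RpA-70, the large RPA subunit, had 0.45 and 0.23 (limma adjusted p = 0.0247 and 0.112).

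**Figure D3:**
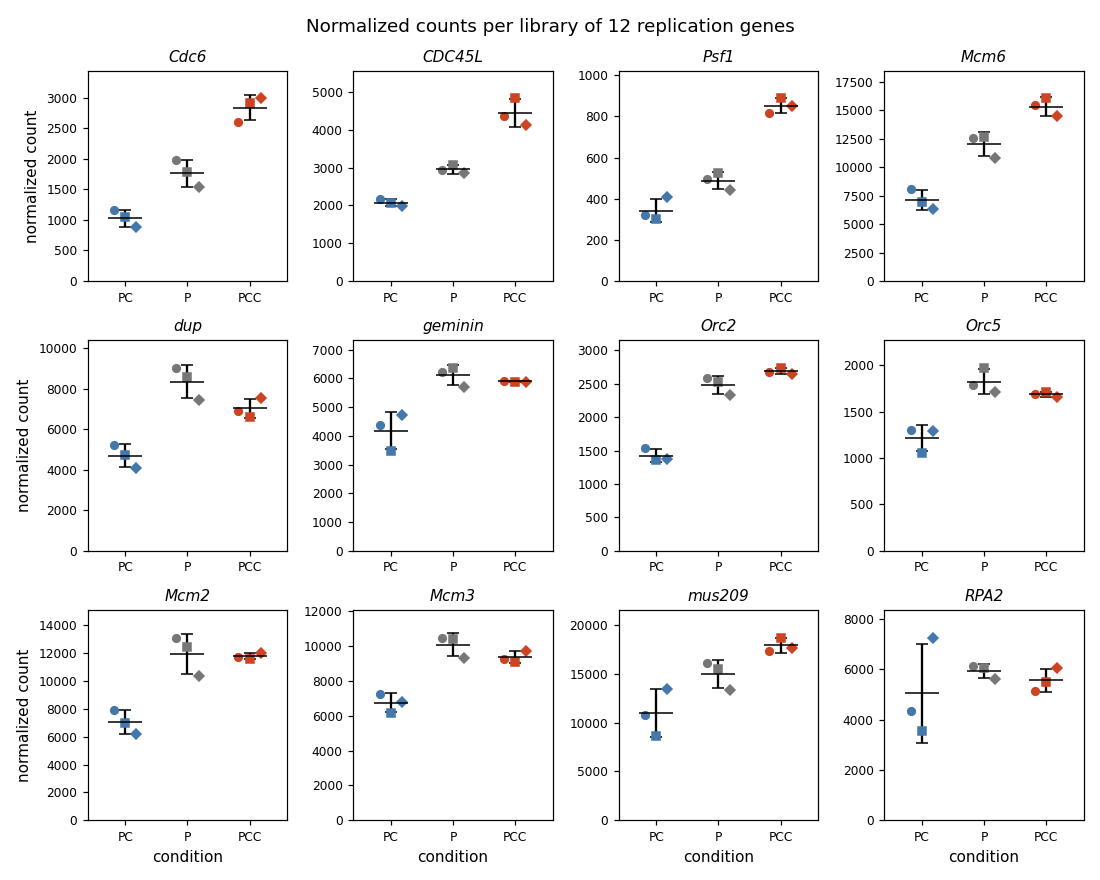
Normalized counts (vertical axes, from 0) of 12 replication genes in each library of PC, P and PCC; circles, squares and diamonds are replicates A, B and C, and horizontal bars with whiskers are the mean and SD of 3 libraries. Cdc6, CDC45L, Psf1 and Mcm6 climb at both steps, dup, geminin, Orc5, Mcm2 and Mcm3 are not higher in PCC than in P, and PC C stands high for mus209 and RPA2.

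Whether the second log2 fold change differed from the first was tested as the contrast (PCC over P) minus (P over PC) in all 9 libraries. It sets P, which carried fewer UAS constructs, against both other conditions. The steps were unequal in chinmo itself, which changed by 0.66 and then 3.24. Over the 37 genes the median of this contrast, the difference between the steps, was -0.41, beside 0.02 for all genes. The difference was negative for 35 of the 37. For the 6 neuroblast markers the median was -0.98, with all 6 negative and 5 called lower. The part of cell composition in the difference was not tested. Among the 37 genes, the difference passed for 5, each with a lower second value, and for 0 with a higher one, where 3.28% of all genes were called lower and 3.64% higher. These were dup, at -1.08 (standard error 0.19, limma adjusted p = 0.0128), Orc2, at -0.69 (standard error 0.14, limma adjusted p = 0.023), and Mcm3, at -0.68 (standard error 0.15, limma adjusted p = 0.0288). Orc5, at -0.70 (standard error 0.18, limma adjusted p = 0.0469), and Mcm2, at -0.78 (standard error 0.20, limma adjusted p = 0.0484), were just inside the threshold. Their products recognise origins (Orc2 and Orc5), load the helicase (dup) or form it (Mcm2 and Mcm3), but the calls do not set these roles apart. For dup, Orc5, Mcm3 and Mcm2 the value in PCC over P was itself below 0, at -0.25, -0.11, -0.10 and -0.02, without a call. DNApol-epsilon, at -0.70 (limma adjusted p = 0.0712), and DNApol-alpha180, at -0.68 (limma adjusted p = 0.0639), had differences of similar size without passing. The group medians were -0.57 for origin licensing, -0.45 for the polymerases and -0.41 for the helicase genes. For CDC45L the difference was 0.08 (standard error 0.14, limma adjusted p = 0.825) and for Psf1 0.29 (standard error 0.24, limma adjusted p = 0.552), the only positive values. The count was 0 without P A and 0 without P B, 3 without PC B, 1 without PCC A, 2 without PCC B and 3 without PCC C, but 11 without PC C. Over all genes, 389 were called lower, against 73 without P A, 54 without P B and 854 without PC C. By gene, the calls of dup, Orc2, Mcm3, Orc5 and Mcm2 were all lost without P A or P B, with limma adjusted p of 0.0858 to 0.0868 for dup, and Orc5 was lost with any library left out other than PC C (limma adjusted p = 0.0522 to 0.247). Mcm3 was lost also without PCC A or PCC B (limma adjusted p = 0.0668 to 0.163), Orc2 without PCC A (0.0667 to 0.132), and Mcm2 without PC B, PCC A, PCC B or PCC C (0.0749 to 0.227).

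Some genes of licensing and activation are set beside one another here as ratios. The ratio of Cdc6 to dup in normalized counts was 0.215 to 0.221 in PC, 0.206 to 0.219 in P and 0.376 to 0.441 in PCC, and that of CDC45L to Mcm2 was 0.271 to 0.319 in PC, 0.223 to 0.274 in P and 0.343 to 0.417 in PCC. In both ratios PC and P overlapped and PCC was above them. The ratio of dup to its inhibitor geminin was 0.87 to 1.37 in PC, 1.31 to 1.45 in P and 1.12 to 1.28 in PCC, so that each P library was above each PCC library, while PC overlapped both. These ratios were chosen after the values were seen, and are given without a test. Cdc6 and dup were picked as the licensing genes with the highest and lowest change in PCC over P. The pair CDC45L and Mcm2 was likewise picked for unlike changes. The separation of PCC in these ratios therefore follows in part from the choice.

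Levels of different genes were compared per kb of transcript, with lengths from the current annotation. In P the highest was mus209, at 13997 ± 1366 normalized counts per kb (SD, n = 3), followed by RnrS at 8284 ± 1367, and their libraries did not overlap. Mcm7 was the highest of the MCM ring at 6032 ± 806, and dpa was the lowest at 3529 ± 312, with Mcm2, Mcm5, Mcm3 and dpa overlapping in neighbouring pairs. GINS and polymerase transcripts were far lower, from 1054 ± 71.5 for DNApol-alpha180 to 448 ± 4.04 for Psf3, the lowest of the 37 in all 3 conditions. The place of Psf3 rests on the length used, 2380 bases, against 692 for Psf1, 831 for Psf2 and 773 for Sld5. Before division by length its mean in P was the highest of GINS, at 1067.2 normalized counts. Those of Psf1, Psf2 and Sld5 were 486.5, 546.0 and 755.8. In the licensing group geminin stood at 5755 ± 329.8, above dup at 2659 ± 257 without overlap, while Cdc6, at 712 ± 88.9, was the lowest of the group and overlapped Orc1 (771 ± 46.2). mus209 and RnrS were first and second in each condition. Among the ranks of the 37 genes, from P to PCC, Cdc6 moved from 33 to 25 and Psf1 from 34 to 24, while Orc5 moved from 22 to 31.

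**Figure D4:**
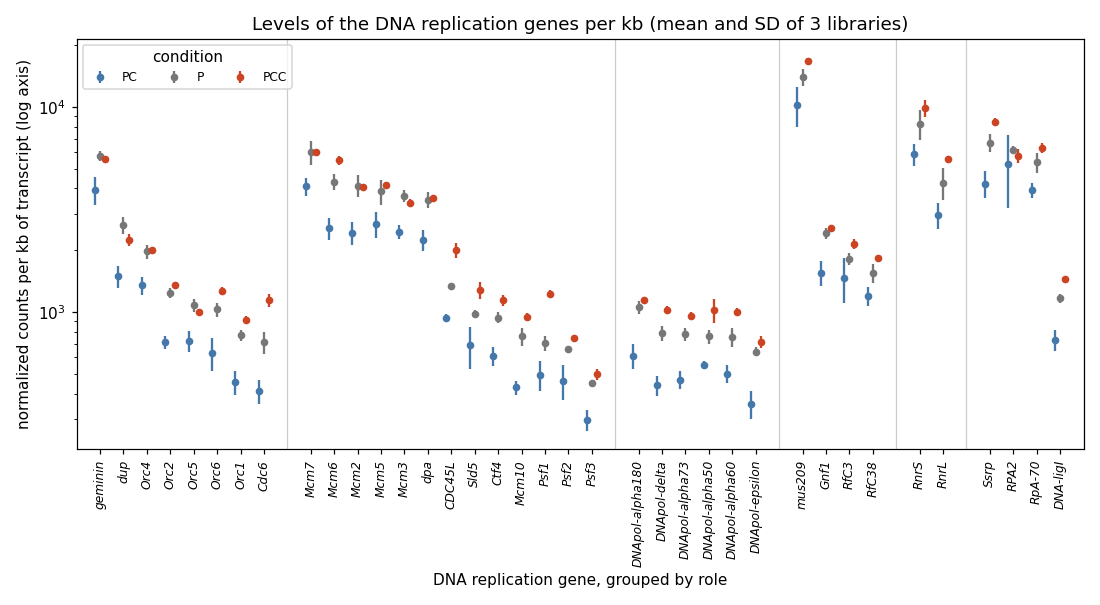
Normalized counts per kb of transcript (vertical log axis) of the 37 genes, grouped by role and ordered by their level in P; points are means and bars SDs of 3 libraries for PC, P and PCC. The sliding clamp gene mus209 stands highest and Psf3 lowest in each condition, and the MCM ring is well above GINS and the polymerases. The place of Psf3 rests on the transcript length used, 2380 bases.

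Most other genes listed for replication were also called higher in the first comparison. Of 35 more genes listed for replication, among them translesion polymerases, chromatin assembly factors, thymidylate and nucleotide enzymes and fork protection genes, 34 had reads. In P over PC, 25 were called higher, 0 lower and 9 did not pass (median 0.57, with 2 values below 0). Of all genes tested, 14.1% were called higher in that comparison. In PCC over P 9 were called higher and 1 lower (median 0.14), against 9.74% and 8.26% of all genes. The gene called lower was CG10336 (-0.34, limma adjusted p = 0.012), named after its values were seen. Among the genes called higher, RecQ4 (0.58), a helicase that acts in origin firing, and Claspin (0.47), which protects forks, had limma adjusted p of 0.00702 and 0.00516. Both were also named after their values were seen. The difference between the steps passed for 4, all lower: Caf1-105 (-1.11), a chromatin assembly subunit, CG10336 (-1.08), Fen1 (-0.74), the flap endonuclease of Okazaki fragments, and DNApol-eta (-0.64), a translesion polymerase, with limma adjusted p of 0.00634, 0.0167, 0.0327 and 0.0445.

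Genes of the neighbouring phases of the cell cycle are given for comparison. Of 29 mitosis genes, 24 were called higher in P over PC (median 0.73), against 14.1% of all genes tested. In PCC over P 1 was called higher, CycB, and 1 lower, cnn (median -0.01), against 9.74% and 8.26% of all genes. At an unadjusted limma p under 0.05, 7 mitosis genes were higher and 6 lower. On the recovered reads edgeR called 4 higher and 1 lower, and DESeq2 8 and 5. The difference between the steps passed for 13 of the 29, all with a lower second value, where 3.28% of all genes tested were called lower. Of 12 genes listed for G1 to S, a list that includes stg, 5 were called higher in P over PC, against 14.1% of all genes tested. In PCC over P 1 of them was called higher and 4 lower, against 9.74% and 8.26% of all genes, so the single higher call is near the share over all genes. Those 4, named after their values were seen, were CycE (-0.61), the cyclin that drives S phase entry, dap (-0.70), the inhibitor of CycE kinase, stg (-0.61), the Cdc25 phosphatase, and the retinoblastoma family member Rbf2 (-0.46), with limma adjusted p of 0.0229, 0.00867, 0.00278 and 0.00396. CycE was measured at 8900.1, 7657 and 7164 normalized counts in PC, 15119.5, 13509 and 12403 in P and 8672, 7687 and 10627 in PCC. P was above both other conditions without overlap, and PC and PCC overlapped. Cdk4, a partner of cyclin D, was the one called higher (0.42, limma adjusted p = 0.021). No difference between these lists was tested.

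The PC replicates differed from each other by transcript length, and the short replication genes carry this spread. PC C was the highest PC library for 9 members, whose transcripts were 692 to 1604 bases long, and the lowest for 18 members, of 2135 to 6849 bases. The difference of PC C from the other PC libraries had a Spearman correlation of -0.869 with transcript length over the 37 genes, against 0.715 for PC A and 0.846 for PC B, while in P and PCC the values lay between -0.178 and 0.141. The genes share these libraries and are not independent. For the 10 shortest members PC C was a median of 0.40 (log2) above the other PC libraries, and for the 10 longest it fell by 0.27 below them. The 5 genes not called in P over PC, all with transcripts of 773 to 1604 bases, are among those that carried this spread. After the length trend within each condition was removed, an alternative added after the data were seen, 36 of 37 were called higher in P over PC, with RPA2 at 0.29 (limma adjusted p = 0.137) the exception, 15 in PCC over P and 36 in PCC over PC, and the difference between the steps passed for 13. Calls over all genes grew as well, from 1617 to 2410 higher and from 2048 to 2651 lower in P over PC, and from 389 to 950 lower for the difference between the steps. This setting removes spread within conditions, and it left the median of the members in P over PC at 0.58, from 0.59. A gain in calls is therefore partly built into it.

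**Figure D5:**
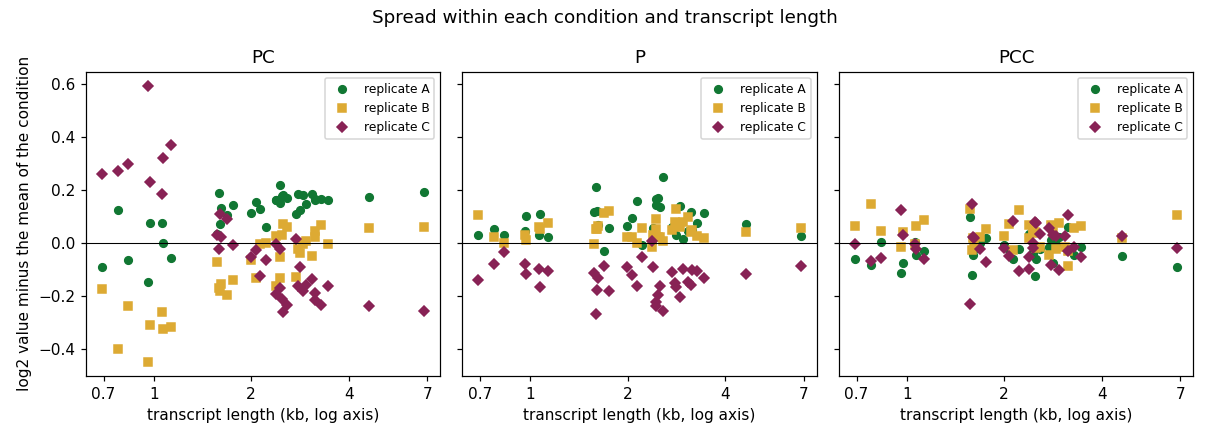
Log2 values of the 37 genes minus the mean of their condition (vertical axis) against transcript length in kb (horizontal log axis), for replicates A, B and C of PC, P and PCC. In PC, replicate C lies above the others for transcripts near 1 kb and below them for long ones, whereas P shows replicate C below the others at all lengths and PCC shows no such order.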

How the data were processed

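RNA was measured in 9 libraries, 3 per condition, placed in groups by the labelled genotype. The authors prepared stranded poly-A libraries, aligned single reads to dm3 with TopHat2 2.0.9 and Bowtie2 2.1.0, counted reads per gene on the opposite strand with HTSeq 0.5.3p9 in union mode and normalized with DESeq. The deposited values are a signal: normalized counts, each a read count divided by the size factor of the library, and 100% of them were whole multiples of the value of 1 read within a tolerance of 0.001, so reads could be recovered. Of 15340 genes, 1415 had no reads, and 14939 matched the current annotation by Entrez number. That annotation is of another build and was used only for names, transcript lengths and overlaps.

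Each pair of conditions was fitted in its 6 libraries by limma 3.58.1 under R 4.3.3. Values were logged to base 2 after 1 was added, which understates changes of low genes, and genes entered when summing to at least 15. A mean-variance trend was used, with Benjamini-Hochberg adjustment at 0.05 over all genes. The difference between the steps was a contrast in all 9 libraries. Scripts were tested on simulated data. In each group of genes, the text gives the members with the largest and smallest change in P over PC and in PCC over P, every member called lower and every member with a called difference between the steps, together with chinmo and pros. The members, groups and lists were chosen with earlier results of these data known.

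Alternatives were pseudocounts of 0.5 and 10, no filter, a mean of at least 10, other scalings, all 9 libraries in 1 fit, eBayes without its trend, the replicate letter as a block, removal of transcript length trends, edgeR 4.0.16 and DESeq2 1.42.0 on recovered reads, and each library left out. Replicates were biological, and p-values measure the spread between these pools only. Promoter sequences were not used here. Figures were drawn with matplotlib 3.10.9.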

Additional observations from a re-analysis of the deposited data

How the results depend on the processing

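The number of replication genes called higher in PCC over P was 15, and it was 8 after scaling to the same total (with 2 called lower), 3 with eBayes without a trend, 6 in the fit of all 9 libraries and between 3 and 10 with 1 library left out. The difference between the steps was called for 5 genes. It was called for 3 without a filter, 9 after quantile normalization, 1 with eBayes without a trend, 12 with the transcript length trend removed, 13 with the trend within conditions removed (added after the data were seen), 8 with edgeR, 13 with DESeq2, and 0 to 11 with 1 library left out. P over PC gave 32 genes, between 18 and 35 with 1 library left out and 26 to 36 under the other settings, and PCC over PC gave 36, between 33 and 37. The medians of the members kept their sign throughout, at 0.52 to 0.67 for P over PC, 0.16 to 0.29 for PCC over P and 0.75 to 0.99 for PCC over PC, where scaling to the same total gave 0.75. Scaling to the same total moved the median of all genes in PCC over PC to -0.15 and quantile normalization to 0.11, from -0.03. With the length trend removed, the near-zero value of Mcm2 in PCC over P turned to 0.031, and with edgeR to 0.0079, and that of Orc4 turned to -0.061 after scaling to the same total. With 1 library left out, these values ranged from -0.12 to 0.054 for Mcm2 and from -0.044 to 0.055 for Orc4, and RPA2 in PCC over PC from -0.017 to 0.50. Uncalled differences between the steps that changed sign ranged from -0.29 to 0.071 for Cdc6, -0.16 to 0.075 for DNApol-alpha50, -0.28 to 0.067 for RfC3, -0.39 to 0.12 for RnrL and -0.0076 to 0.33 for pros. The cause of these shifts was not tested.

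Replicate letters do not pair the libraries: deviations from the condition means correlated between -0.538 and 0.484 for libraries of the same letter in different conditions, over 8696 genes. With the replicate block, members called were 30 in P over PC, 1 in PCC over P (CDC45L, with Psf1 at limma adjusted p = 0.0558 and Cdc6 at 0.0769), 35 in PCC over PC and 1 for the difference between the steps. A count of promoter motifs in windows of other widths was not run, because no promoter sequence was used here. Depth limits few values: the SD between replicates was below the counting error for 0 of 37 members in PC, 2 in P and 5 in PCC.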

Other observations

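A second PCNA gene of the fly, CG10262 (PCNA2 in the current annotation), is not among the replication genes above and was noticed after its values were seen. It was measured at 249, 265 and 397 normalized counts in PC, 113, 144 and 139 in P and 78, 85 and 76 in PCC. The conditions did not overlap, and the order was opposite to that of mus209, which encodes the main PCNA. The log2 fold change was -1.17 for P over PC (limma adjusted p = 0.00731), -0.71 for PCC over P (limma adjusted p = 0.0503) and -1.88 for PCC over PC (limma adjusted p = 0.00102). PC C was again the highest PC library, as it was for other short transcripts, and this transcript is 1034 bases long.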
